A study of Homo sapiens with 18 samples.

Results

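The 10 genes described here are the stress transcription factor ATF4, 3 stress genes that it is known to control (DDIT3, TRIB3 and CHAC1) and 6 enzymes of asparagine, serine and mitochondrial one-carbon synthesis (ASNS, PHGDH, PSAT1, PSPH, SHMT2 and MTHFD2). They were chosen by name, with earlier results of these data known, so the counts of members called below do not test the set. All 10 were found among the 38716 gene symbols of the deposited tables. Footprints, the pieces of mRNA that ribosomes shield from nuclease (Ribo-seq), and whole mRNAs (mRNA-seq) were sequenced from IMR90, fibroblasts of human fetal lung that have a limited lifespan, wild type by the series' description. Young cells were proliferating and of low passage, old cells were of high passage and in replicative senescence, and ICM cells were of low passage and had been given inflachromene, a small molecule that binds HMGB1 and HMGB2. The labels of these libraries give no passage number, no dose or time of inflachromene and no solvent control. Each condition had 3 replicates in each assay, 18 libraries in all, and the study's methods describe the replicates as grown independently. The series' own description instead counts 4 low-passage, 4 high-passage and 2 ICM samples, and the groups used here follow the sample titles. The study's text also describes senescent Ribo-seq data as made in earlier work. Whether the libraries of the 3 conditions were prepared together is not given in the sources used here, so condition and preparation cannot be told apart.

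ATF4 is made when the initiation factor eIF2 is phosphorylated, for instance when an amino acid runs short or unfolded protein builds up in the ER. Its mRNA carries short upstream open reading frames (ORFs), which hold ribosomes away from the coding sequence (CDS) in unstressed cells and let them reach it under stress. ATF4 then switches on genes for amino acid synthesis and uptake, tRNA charging and, with prolonged stress, cell death. PHGDH, PSAT1 and PSPH turn a glycolytic intermediate into serine in 3 successive steps, SHMT2 and MTHFD2 carry the serine carbon into mitochondrial folate for purine and thymidylate synthesis, and ASNS makes asparagine.

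The upstream start codons are shown first, because footprints in the 5′ UTR of ATF4 and DDIT3 are described below. The deposited values are totals per transcript region, so no footprint could be placed on a single upstream ORF. Footprints where an upstream ORF overlaps the CDS cannot be told apart from those of the CDS in the counts below. Upstream start codons were searched in the canonical GENCODE 44 transcripts on GRCh37. The ATF4 transcript lies at chr22:39916567-39918688 on the plus strand, with a 5′ UTR of 282 bases, a CDS of 1056 bases and 3 upstream ORFs of 1, 3 and 59 codons. The last of these overlaps the CDS start by 83 bases in another frame. In each line the start codon is in capitals and the transcript is read 5′ to 3′.
ATF4 upstream ORF 1, chr22:39916591-39916593: ccgcccacagATGtagttttctc
ATF4 upstream ORF 2, chr22:39916653-39916655: cacggccaccATGgcgtattagg
ATF4 upstream ORF 3, chr22:39916752-39916754: ggcttaagccATGgcgcttctca
ATF4 CDS, chr22:39917451-39917453: gcaccgcaacATGaccgaaatga

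DDIT3, which encodes the stress factor CHOP, lies at chr12:57910376-57914297 on the minus strand. Its canonical transcript has a 5′ UTR of 177 bases, a CDS of 510 bases and 3 upstream start codons, which open ORFs of 34, 31 and 73 codons. Upstream ORFs 1 and 2 share a frame and a stop codon, as each upstream start codon was counted as its own ORF. The last ORF overlaps the CDS by 190 bases.
DDIT3 upstream ORF 1, chr12:57914261-57914263: tgagcgtatcATGttaaagatga
DDIT3 upstream ORF 3, chr12:57911219-57911221: ctgaaagcagATGtgcttttcca
DDIT3 CDS, chr12:57911187-57911189: aactgcagagATGgcagctgagt

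An upstream ORF was found in 40.8% of 19553 canonical coding transcripts and one that overlaps the CDS in 13.2%. Of the other members, counted by upstream start codon, TRIB3 had 2 and PSPH had 6, none with an ORF reaching the CDS. CHAC1, ASNS, PHGDH, PSAT1, SHMT2 and MTHFD2 had none. On GRCh37, the TRIB3 transcript lies at chr20:361404-378203, CHAC1 at chr15:41245669-41248710, PHGDH at chr1:120254557-120286838, PSAT1 at chr9:80912041-80945009, SHMT2 at chr12:57623494-57628718 and MTHFD2 at chr2:74425742-74444692, all on the plus strand, and PSPH at chr7:56078757-56119137 on the minus strand.

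Depth set how much could be read from each assay. In mRNA-seq, 7902427 to 14144455 reads per library lay in coding genes, while Ribo-seq libraries held 46239 to 1718521 CDS footprints, and only 43 to 3583 of these lay in the 10 members. Some footprint libraries stood apart. The CDS held 34.4% of reads in young replicate 1 and 15.0% in old replicate 2, against 54.7% to 88.8% in the others, and in old replicate 2 the 5′ UTR reads made up 52.4% of the 5′ UTR and CDS reads together. The 53 genes at least 32-fold higher in young than in ICM mRNA summed to 106, 360 and 1653 footprint CPM (counts scaled to a common library total) in ICM replicates 1, 2 and 3, against 3474 to 4188 CPM in the young libraries. The 16 genes at least 32-fold higher in ICM than in young mRNA summed to 833, 304 and 306 footprint CPM in young replicates 1, 2 and 3. In old replicates 1, 2 and 3 they summed to 192, 877 and 167 CPM, against 4313 to 6864 CPM in the ICM libraries. Counts of footprints are therefore also given below without young replicate 1, old replicate 2 and ICM replicate 3. Of 10 fibroblast markers, 9 had a mean of at least 5 CPM, and they summed to 12194 to 32573 CPM per mRNA-seq library. Of their mRNAs, 8 of 10 were called lower in ICM than in young cells and 4 higher and 3 lower in old cells. Of all genes tested in mRNA-seq, 36.1% were called lower in ICM, and 32.4% higher and 33.7% lower in old cells. Among markers of other cell types, CDH5 (endothelium) and CD3E (T cells) had no read, and the epithelial, endothelial and immune lists summed to at most 317, 107 and 66.7 CPM. Most of each sum came from 1 gene. KRT18 (epithelial) was at 278 ± 10.2 CPM in young, 233 ± 14.4 CPM in old and 29.7 ± 3.01 CPM in ICM, TEK (endothelial) at 59.1 ± 4.13, 102 ± 6.94 and 50.8 ± 5.10 CPM and CD68 (macrophage) at 20.6 ± 1.11, 33.2 ± 1.54 and 58.6 ± 6.14 CPM (SD, n = 3). The part of these marker changes in the results below was not tested. CPM values are shares of a library made from many cells, so fewer cells making an mRNA and less of it per cell cannot be told apart.

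In mRNA-seq, 9 of the 10 genes were lower in ICM than in young cells and 9 were lower in old than in young cells (edgeR, adjusted p under 0.05 over all genes). Of all 13173 genes tested, 71.0% were called in either direction in ICM against young, 36.1% lower and 34.9% higher. In old against young the shares were 66.1%, 33.7% and 32.4%. The median log2 change of the members was -1.97 in ICM and -1.09 in old, beside a median of -0.01 for all genes in both comparisons. Both comparisons use the same young libraries. The exceptions were DDIT3 in ICM and CHAC1 in old cells. Summed over the 10 genes, the mRNA level was 2041, 2081 and 1944 CPM in young replicates 1, 2 and 3, then 951, 1018 and 919 CPM in old and 652, 744 and 593 CPM in ICM, so that the 3 conditions did not overlap.

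**Figure D1:**
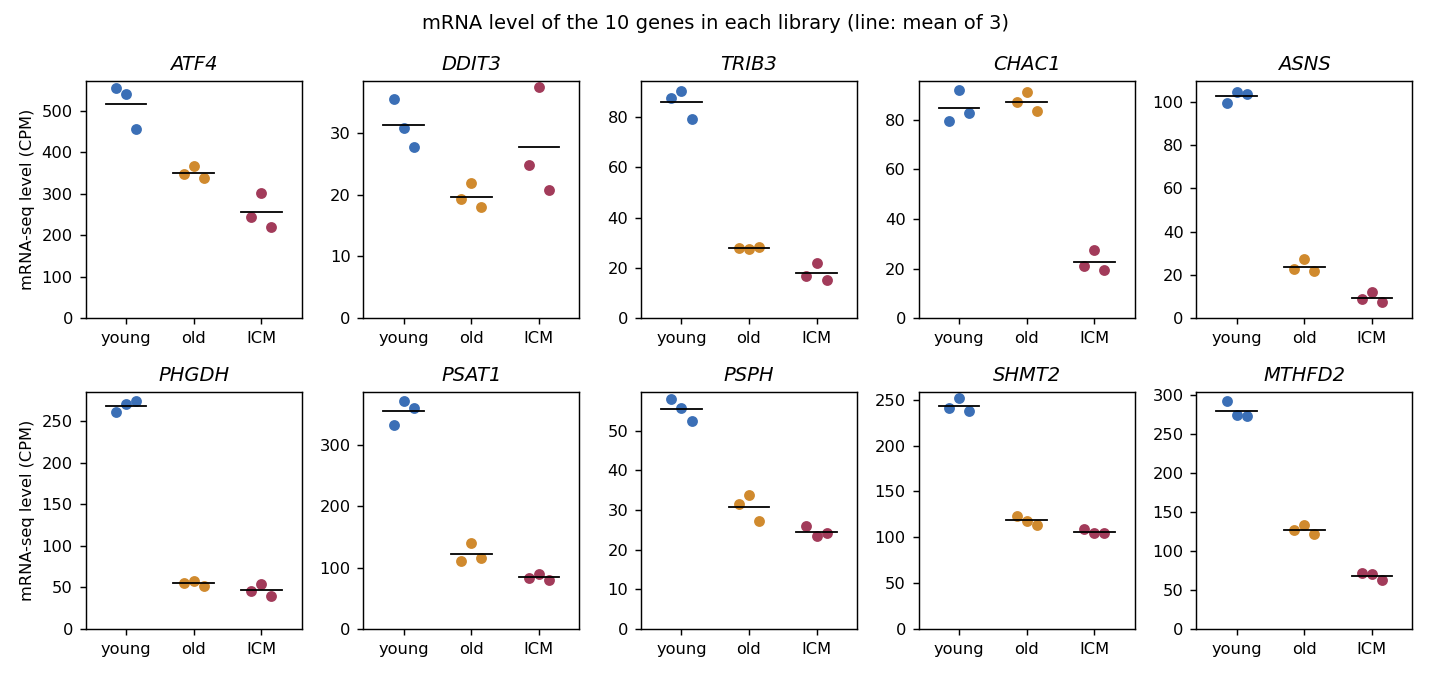
mRNA-seq level (CPM, linear axis from 0, a separate scale for each gene) of the 10 genes in the 3 young, 3 old and 3 ICM libraries, with the mean as a line. CHAC1 stood at 79.6 to 91.9 CPM in all young and old libraries and at 19.5 to 27.6 CPM in ICM, and only DDIT3 had ICM values that overlapped both other groups.

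ATF4 mRNA was at 554, 539 and 455 CPM in young replicates 1 to 3, at 346, 367 and 338 CPM in old and at 245, 302 and 219 CPM in ICM. Every young library was above every old one, and every old one above every ICM one. The log2 change was -1.02 (SE 0.09, edgeR adjusted p 1.38e-09) in ICM against young and -0.56 (SE 0.09, 1.22e-05) in old against young. ICM was also below old, by -0.46 on that scale (SE 0.09, edgeR adjusted p 1.54e-04).

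TRIB3, CHAC1 and DDIT3 parted ways. TRIB3 is a pseudokinase that binds and restrains ATF4 itself. It stood at 87.5, 90.5 and 79.3 CPM in young, 27.9, 27.7 and 28.3 CPM in old and 16.7, 21.8 and 15.2 CPM in ICM, with no overlap between conditions. Its log2 change was -2.27 (SE 0.10) in ICM and -1.62 (SE 0.09) in old against young, with edgeR adjusted p of 2.22e-15 and 8.08e-13.

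CHAC1, which breaks down glutathione, kept its young level in old cells and was low in ICM. It was at 79.6, 91.9 and 82.8 CPM in young, 87.0, 91.1 and 83.6 CPM in old and 21.1, 27.6 and 19.5 CPM in ICM. The young and old ranges overlapped and the log2 change between them was 0.04 (SE 0.08, edgeR adjusted p 0.700). The ICM libraries lay below both, with log2 changes of -1.91 (SE 0.10, 4.42e-14) against young and -1.95 (SE 0.09, 3.65e-14) against old by edgeR. Among the 13173 genes, only 3.55% had a lower log2 change than CHAC1 in ICM against old.

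DDIT3 was called lower in old cells and was not called in ICM against young. It was at 35.5, 30.8 and 27.7 CPM in young, 19.2, 21.9 and 17.97 CPM in old and 24.8, 37.4 and 20.8 CPM in ICM. The old libraries lay below the young ones (log2 change -0.65, SE 0.15, edgeR adjusted p 6.44e-04), while ICM replicate 2 was the highest of all 9 libraries and the other ICM libraries were below every young one. ICM against young gave -0.18 (SE 0.14, edgeR adjusted p 0.266), and ICM was called higher than old by 0.47 (SE 0.15, 0.00894) although the ranges overlapped. Both calls turned on ICM replicate 2. Without it, DDIT3 was lower in ICM than in young (-0.45, adjusted p 0.00186) and not called against old (0.21, adjusted p 0.141), and DESeq2 did not call the difference from old either (adjusted p 0.0611).

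Of the enzymes, ASNS had the largest fall of the 10 genes in ICM. The gene lies at chr7:97480989-97501720 (GRCh37, minus strand). It was at 99.3, 105 and 104 CPM in young, 22.7, 27.3 and 21.6 CPM in old and 8.86, 11.9 and 7.63 CPM in ICM, so that the conditions stood apart. ASNS was 10.9-fold lower in ICM (log2 change -3.45, SE 0.11, edgeR adjusted p 1.26e-17) and 4.27-fold lower in old (-2.09, SE 0.10, 2.42e-14) than in young. Only 1.45% of all genes had a lower log2 change in ICM against young.

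PHGDH, the first enzyme of serine synthesis, had the largest fall of the 10 in old cells. Its levels were 261, 270.5 and 273 CPM in young, 55.5, 58.1 and 51.9 CPM in old and 45.9, 54.3 and 39.7 CPM in ICM. Old and ICM overlapped, and both were far below young, by -2.28 on the log2 scale (SE 0.08, edgeR adjusted p 3.98e-16) in old and -2.53 (SE 0.08, 2.23e-17) in ICM. PSAT1, the transaminase of the next step, was at 333, 372 and 360 CPM in young, 110, 140 and 116 CPM in old and 83.7, 90.0 and 79.9 CPM in ICM. Its log2 changes were -1.54 (SE 0.08) in old and -2.07 (SE 0.08) in ICM against young, with edgeR adjusted p of 1.45e-13 and 4.54e-16. PSPH, the phosphatase that releases serine, moved least of the 3, from 58.0, 55.7 and 52.4 CPM in young to 31.4, 33.7 and 27.2 CPM in old and 25.9, 23.3 and 24.2 CPM in ICM. The fall was 1.79-fold in old and 2.25-fold in ICM.

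The mitochondrial pair followed the same order of conditions. SHMT2, which splits serine into glycine and a one-carbon unit, was at 241, 251 and 237 CPM in young, 123, 118 and 113 CPM in old and 109, 105 and 104 CPM in ICM. MTHFD2, which oxidises that unit on folate, was at 293, 275 and 273 CPM in young, 127, 133 and 122 CPM in old and 71.7, 70.2 and 62.9 CPM in ICM. In neither gene did the conditions overlap. SHMT2 changed by -1.04 (SE 0.06) in old and -1.20 (SE 0.06) in ICM and MTHFD2 by -1.14 (SE 0.06) and -2.04 (SE 0.07) on the log2 scale, each with an edgeR adjusted p of at most 1.17e-12.

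Set directly against old cells, ICM cells had lower mRNA of 9 of the 10 genes and higher DDIT3 (edgeR), where 63.3% of all genes were called, 32.6% lower and 30.7% higher. The median of the members was -0.50 on the log2 scale, against -0.01 for all genes. The largest differences were in CHAC1, ASNS (-1.35, SE 0.13) and MTHFD2 (-0.90, SE 0.07). The smallest, in PHGDH (-0.25, SE 0.09, adjusted p 0.0173) and SHMT2 (-0.16, SE 0.06, adjusted p 0.0290), were lost when single libraries were left out, PHGDH without old replicate 2, ICM replicate 1 or ICM replicate 3 and SHMT2 without old replicate 1, ICM replicate 2 or ICM replicate 3.

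Footprints on the CDS were counted to ask whether ribosomes on these mRNAs changed with them. Of 8 members past the filter on low counts, 6 were lower in ICM than in young cells and 6 were lower in old than in young cells (edgeR). In ICM against young, 26.9% of 4643 genes were called and 14.1% were called lower, and in old against young 36.4% and 18.8%. The members' median log2 change was -1.89 in ICM and -1.22 in old, beside -0.04 and -0.03 for all genes. DDIT3 and TRIB3 did not pass the filter. Without young replicate 1, old replicate 2 and ICM replicate 3, 9 members passed the filter, with TRIB3 added, and 7 were called lower in each comparison, where 13.8% (ICM) and 15.8% (old) of 8007 genes were called lower. PSPH was gained in ICM and TRIB3 in old.

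**Figure D2:**
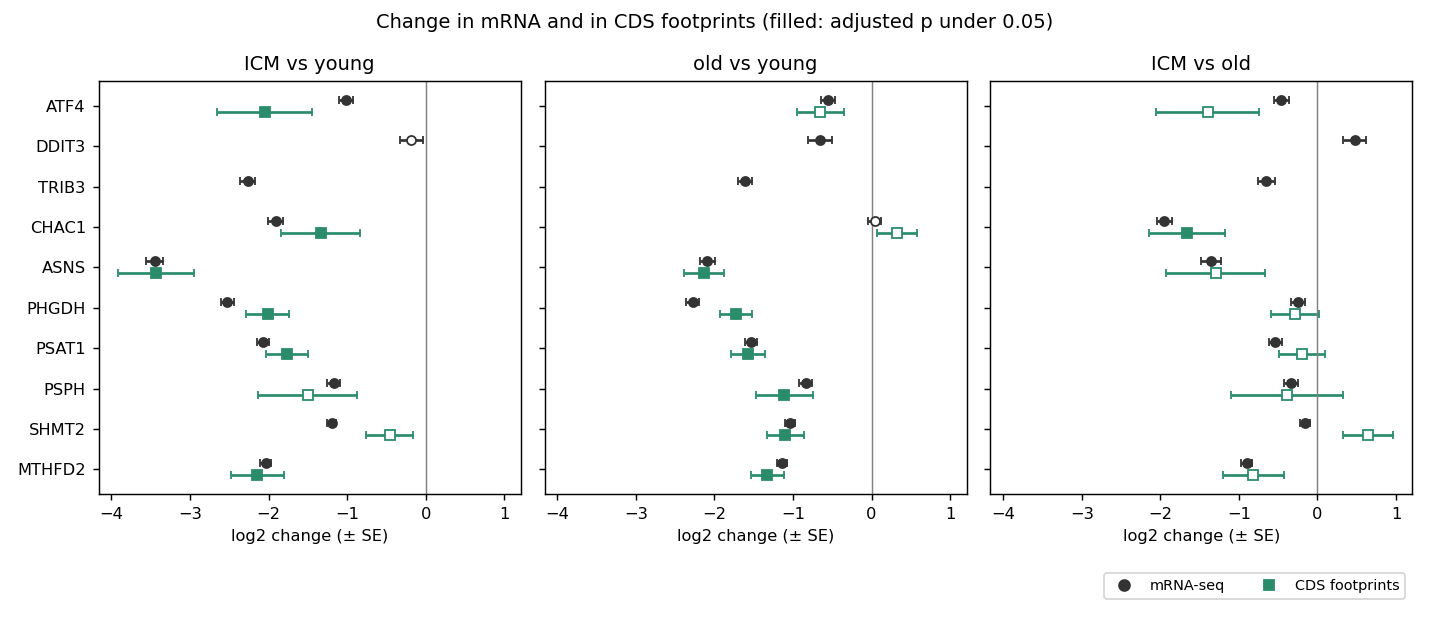
log2 change with its SE (horizontal axis, one scale for all panels) of the 10 genes in mRNA-seq (circles) and in CDS footprints (squares) for ICM against young, old against young and ICM against old, filled where the edgeR adjusted p was under 0.05. ASNS lay furthest left in ICM against young in both assays, at -3.45 and -3.43, and DDIT3 and TRIB3 have no footprint point because they were not tested.

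ASNS footprints were at 124, 188 and 193 CPM in young (7, 128 and 328 reads), 36.8, 54.8 and 51.3 CPM in old (58, 3 and 28 reads) and 8.82, 24.8 and 40.3 CPM in ICM (2 reads in each). All young libraries were above all others. The log2 change was -3.43 (SE 0.49, edgeR adjusted p 1.22e-06) in ICM and -2.14 (SE 0.25, 3.01e-08) in old against young. PHGDH footprints were at 549, 457 and 481 CPM in young, 124, 183 and 168 CPM in old and 132, 74.5 and 141 CPM in ICM. They changed by -2.01 (SE 0.27, edgeR adjusted p 6.15e-07) in ICM and -1.73 (SE 0.21, 3.43e-08) in old. The ICM libraries held 30, 6 and 7 PHGDH reads.

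PSAT1 footprints were at 372, 682 and 676 CPM in young, 186, 256 and 234 CPM in old and 141, 186 and 322 CPM in ICM. The young libraries stood above the others, and the changes were -1.77 (SE 0.27, edgeR adjusted p 4.60e-06) in ICM and -1.57 (SE 0.21, 4.06e-07) in old. The ICM libraries held 32, 15 and 16 PSAT1 reads. MTHFD2 footprints were at 213, 329 and 248 CPM in young, 117, 54.8 and 110 CPM in old and 44.1, 86.9 and 101 CPM in ICM. No old or ICM library reached the lowest young one, with changes of -2.14 (SE 0.34, edgeR adjusted p 9.29e-06) and -1.33 (SE 0.21, 6.54e-06). MTHFD2 had 12 reads in young replicate 1, 3 in old replicate 2 and 10, 7 and 5 in the ICM libraries.

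ATF4 footprints also rested on few reads. The young libraries held 6, 55 and 143 CDS reads (106, 80.9 and 84.0 CPM), the old ones 95, 3 and 22 (60.2, 54.8 and 40.3 CPM) and the ICM ones 0, 5 and 2 (0, 62.0 and 40.3 CPM). A count of 0 in ICM replicate 1, which had 225041 CDS reads, allows up to 13.3 CPM. All old and ICM libraries lay below the lowest young one. ICM was called lower (log2 change -2.05, SE 0.61, edgeR adjusted p 0.0108), but without ICM replicate 1 the change was -0.71 (adjusted p 0.465), and without young replicate 2 or 3 the adjusted p was 0.0533 or 0.0750. In old against young the change was -0.65 (SE 0.30, edgeR adjusted p 0.0878), and it was called when only those groups were fitted (-0.57, adjusted p 0.0252).

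CHAC1 footprints held the pattern of its mRNA. They were at 106, 86.7 and 58.8 CPM in young, 95.1, 73.0 and 82.4 CPM in old and 26.5, 24.8 and 40.3 CPM in ICM, the last from 6, 2 and 2 reads. The ICM libraries lay below all others, and the young and old ones overlapped. The change was -1.34 (SE 0.50, edgeR adjusted p 0.0444) in ICM and 0.33 (SE 0.25, 0.319) in old against young. The ICM call was lost without young replicate 1 or 2, any 1 old library, ICM replicate 1 or ICM replicate 2, with adjusted p of 0.0535 to 0.267. CHAC1 was also the only member called between ICM and old cells, at -1.66 (SE 0.49, adjusted p 0.0162), where 13.3% of all genes were called and 7.47% were called lower. That call was lost without old replicate 1 (adjusted p 0.121) or ICM replicate 1 (0.135).

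SHMT2 and PSPH gave less clear footprints in ICM. SHMT2 was at 301, 269 and 254 CPM in young, 112, 110 and 143 CPM in old and 115, 397 and 141 CPM in ICM. ICM replicate 2 (32 reads) was above every young library and the other ICM libraries were below all of them. Old was lower than young (-1.10, SE 0.24, edgeR adjusted p 4.01e-04). ICM was not called (-0.46, SE 0.30, adjusted p 0.267), and without ICM replicate 2 it was (-1.14, adjusted p 0.00573). Without ICM replicate 1, SHMT2 footprints were called higher in ICM than in old cells (1.13, adjusted p 0.0264). PSPH had 0, 45 and 120 reads in young, 51, 4 and 11 in old and 2, 4 and 2 in ICM. These were 0, 66.2 and 70.5 CPM in young, 32.3, 73.0 and 20.1 CPM in old and 8.82, 49.6 and 40.3 CPM in ICM, with overlap in both comparisons. Its change was -1.50 (SE 0.63, edgeR adjusted p 0.0727) in ICM and -1.11 (SE 0.36, 0.0148) in old against young. The call in old was lost without young replicate 2, old replicate 1 or old replicate 3, and with DESeq2 (-0.64, adjusted p 0.675). ICM was called lower without young replicate 1, ICM replicate 2 or ICM replicate 3, with adjusted p of 0.0148 to 0.0343.

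The genes below the filter had 6, 19 and 57 (TRIB3) and 1, 1 and 11 (DDIT3) CDS footprints in young, 22, 1 and 6 and 10, 0 and 1 in old, and 2, 1 and 0 and 2, 2 and 0 in ICM. With no filter, TRIB3 changed by -1.32 (edgeR adjusted p 0.0268) in old and -2.17 (0.0763) in ICM against young, and DDIT3 by -0.06 (0.971) and 0.93 (0.628).

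Translational efficiency, the change in footprints beyond the change in mRNA, was called in 0 of the 8 members in ICM against young, 0 in old against young and 0 in ICM against old (edgeR interaction of assay and condition, and 0 by DESeq2 in each). Of 4618 genes, 2.14%, 1.49% and 0.282% were called. At an unadjusted p under 0.05 there was 1 member in each: SHMT2 in ICM against young (0.71, SE 0.32, adjusted p 0.275), PHGDH in old against young (0.64, SE 0.22, adjusted p 0.183) and SHMT2 in ICM against old (0.73, SE 0.34, adjusted p 0.429). ATF4 gave -1.13 (SE 0.63, adjusted p 0.393) in ICM and -0.10 (SE 0.29, adjusted p 0.920) in old. In ICM against young the SE ran from 0.29 to 0.70, so that small changes were not detectable at this depth.

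Within a condition the members differed widely in footprints per mRNA. The ratio of CDS footprint CPM to CDS mRNA-seq CPM for ATF4 was 0.169, 0.137 and 0.173 in young, 0.162, 0.126 and 0.112 in old and 0, 0.197 and 0.188 in ICM. In young cells it was lower than in all but 0.186% of 6460 genes with at least 50 footprints, whose median was 1.07, and in old cells lower than in all but 0.188% of 5856 genes. PSAT1 and PHGDH lay above most genes. PSAT1 had the highest mean ratio of the members in young cells, with 1.25, 2.03 and 2.06 in young and 1.77, 1.91 and 2.17 in old, above 87.8% and 92.0% of genes. PHGDH was at 1.36 ± 0.15 in young and 2.05 ± 0.39 in old (SD, n = 3), the highest mean of the members in old cells and above 93.4% of genes, although the old ranges of PHGDH and PSAT1 overlapped. These ratios are descriptions, as both assays are scaled to their own totals.

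**Figure D3:**
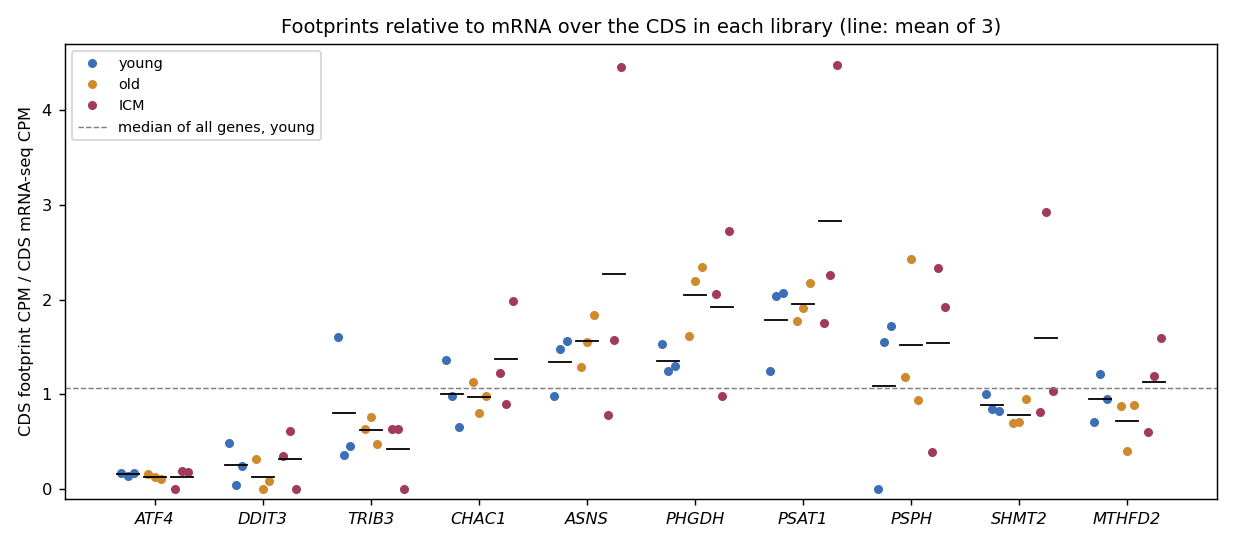
Ratio of CDS footprint CPM to CDS mRNA-seq CPM (linear axis) in each library of the 3 conditions, with the mean of 3 as a line and the young median of all genes, 1.07, dashed. All 9 ATF4 values lie under 0.2, while ICM replicate 3 gives the highest values of ASNS and PSAT1, from 2 and 16 reads.

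Most footprints on ATF4 lay upstream of its CDS. The 5′ UTR held 11 of 17, 155 of 210 and 264 of 407 of the 5′ UTR and CDS footprints in young, 233 of 328, 6 of 9 and 35 of 57 in old and 6 of 6, 5 of 10 and 5 of 7 in ICM. As shares, these were 64.7%, 73.8% and 64.9% in young, 71.0%, 66.7% and 61.4% in old and 100%, 50% and 71.4% in ICM. The 95% interval (exact binomial, counting error only) ran from 60.0% to 69.5% in young replicate 3 and from 54.1% to 100% in ICM replicate 1. The pooled young share, 67.8%, was higher than that of 99.7% of 6711 genes with at least 50 such footprints, whose median was 1.13%, and the old share of 69.5% was higher than that of 99.8% of 6014 genes. In mRNA-seq of the same lysates the 5′ UTR held 26.1% to 39.6% of these ATF4 reads.

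**Figure D4:**
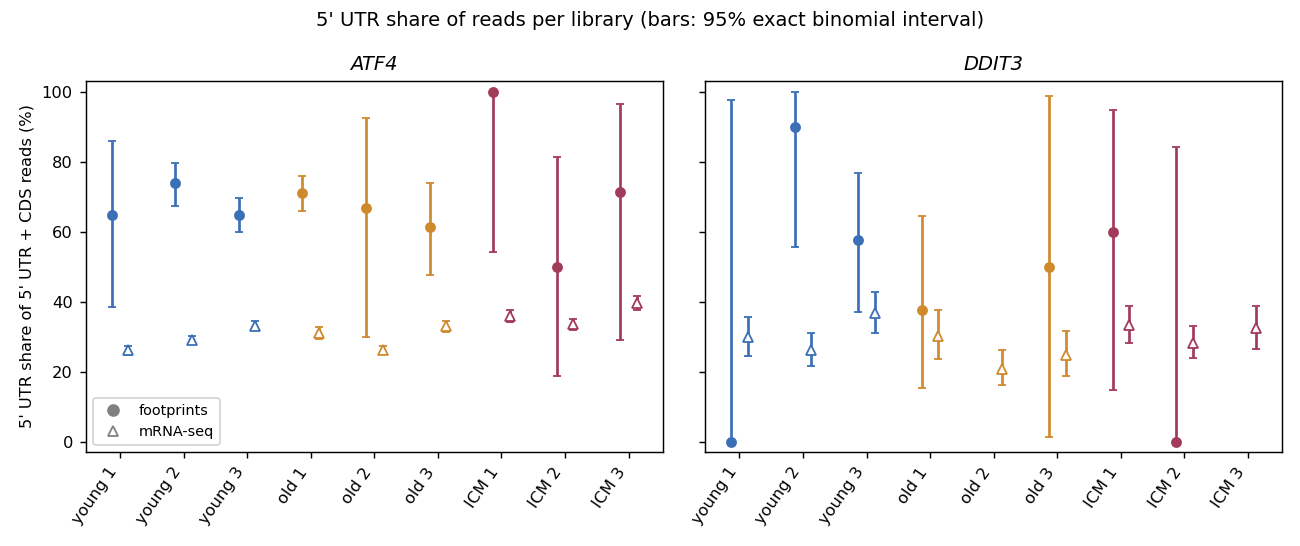
Share of 5′ UTR reads among 5′ UTR and CDS reads (percent, linear axis) of ATF4 and DDIT3 in each library, for footprints (filled circles) and mRNA-seq (open triangles), with 95% exact binomial intervals. The ATF4 footprint shares lie between 50% and 100% and above the mRNA-seq share of every lysate, and DDIT3 has no footprint in either region in old replicate 2 and ICM replicate 3.

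The ATF4 share did not differ detectably between conditions. The means were 67.8% ± 5.21 in young, 66.4% ± 4.82 in old and 73.8% ± 25.1 in ICM (SD, n = 3). Exact two-sided permutation tests gave p = 0.8 for ICM against young, 0.7 for old against young and 0.7 for ICM against old, where 0.1 is the smallest p that 3 against 3 allows. In the edgeR fit of region and condition, over 178 genes of which 8.99%, 1.69% and 1.12% were called, ATF4 gave 0.20 (SE 0.84, adjusted p 0.935), 0.99 (SE 0.64, 0.485) and -0.79 (SE 0.98, 0.622) on the log2 scale, so that 0 of 3 were called and 0 had an unadjusted p under 0.05. The median of all genes in that fit was itself -1.16 in ICM against young and -1.36 in ICM against old.

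DDIT3 had few footprints in all. The 5′ UTR held 0 of 1, 9 of 10 and 15 of 26 in young, 6 of 16, 0 of 0 and 1 of 2 in old and 3 of 5, 0 of 2 and 0 of 0 in ICM. Pooled, the share was 64.9% in young (exact binomial interval 47.5% to 79.8%), 38.9% in old (17.3% to 64.3%) and 42.9% in ICM (9.90% to 81.6%). The exact permutation p was 1, 0.8 and 1 over libraries with a footprint, and the smallest possible was 0.2, 0.2 and 0.333. Among the other members, PSPH reached a pooled 16.2% in young (32 of 197), above 95.5% of genes, and TRIB3 9.89% (9 of 91), while CHAC1 had 0 of 165 in young, which allows up to 2.21% (upper exact binomial bound).

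Promoters were searched for the letters TGATGNAA on both strands, the core of the C/EBP-ATF response element that ATF4 binds with C/EBP partners, from 250 bases before to 50 after each RefSeq start (GRCh38.p14). Of the 8 members in the table (PSPH and SHMT2 have no entry), ASNS and CHAC1 held it, as did 3.62% of 35116 promoters and 4.46% of 27305 genes. The sites are shown on the strand of the gene, with the matched letters in capitals. The cAMP response element TGACGTCA, a palindrome, was in 0 of the 8 members and in 1.85% of promoters, so no match to it overlapped these.
ASNS promoter, chr7:97872461-97872484, minus strand: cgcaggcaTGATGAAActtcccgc
CHAC1 promoter, chr15:40953254-40953277, plus strand: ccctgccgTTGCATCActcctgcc
The ASNS match starts 68 bases before the start site and the CHAC1 match, on the opposite strand, 209 bases before it. The mRNAs of both had large falls in ICM, and in old cells ASNS fell while CHAC1 did not pass the test. Members without a match in this window changed as well, and a site further away or with other letters would not have been found. Against CHAC1 at -1.91 in ICM against young, PHGDH (-2.53), TRIB3 (-2.27), PSAT1 (-2.07) and MTHFD2 (-2.04) fell further. ATF4 (-1.02) and DDIT3 (-0.18, not called) changed less. A link between the match and these changes was not tested.

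Around the 10 genes, other known ATF4 targets and stress regulators moved both ways. Of 12, in ICM against young mRNA 4 rose and 7 fell, and in old against young 3 rose and 7 fell. The shares of all genes that rose and fell were 34.9% and 36.1% in ICM and 32.4% and 33.7% in old. ATF3, a stress-induced transcription factor, rose from 15.5 ± 0.353 CPM in young to 150 ± 17.3 CPM in ICM (SD, n = 3; log2 change 3.28, SE 0.12, edgeR adjusted p 1.55e-16) and by 1.22 (SE 0.13) in old. GDF15, a secreted stress hormone, rose by 1.81 (SE 0.09) in ICM and 1.04 (SE 0.10) in old. DDIT4, an inhibitor of mTORC1, fell, with log2 changes of -2.32 (SE 0.13) in ICM and -1.69 (SE 0.13) in old. The footprints of GDF15 rose by 2.25 (SE 0.26) in ICM and 1.37 (SE 0.23) in old, and those of DDIT4 changed by -2.90 (SE 0.59) and -1.18 (SE 0.28).

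The eIF2 kinases, eIF2 and eIF2B subunits and eIF2 phosphatase subunits moved both ways. Of 14, in mRNA 4 rose and 7 fell in ICM and 2 rose and 5 fell in old against young. Among all genes 34.9% rose and 36.1% fell in ICM, and 32.4% rose and 33.7% fell in old. The largest falls in ICM were in EIF2B2, a subunit of the exchange factor that recharges eIF2 (-1.01, SE 0.10, edgeR adjusted p 6.08e-09), and EIF2S3, the gamma subunit of eIF2 (-0.93, SE 0.06, 6.01e-12), and EIF2S3 also fell in old (-0.54, SE 0.06). EIF2AK3, which encodes the ER stress kinase PERK, rose by 0.55 (SE 0.09, edgeR adjusted p 8.93e-06) in ICM. EIF2AK4, which encodes the amino acid sensor GCN2, rose from 179 ± 0.810 to 276 ± 1.07 CPM in old (SD, n = 3, log2 change 0.62, SE 0.06). In ICM its mRNA was higher by 0.17 (SE 0.06) and its footprints were lower (-1.37, SE 0.46, edgeR adjusted p 0.0220). Translational efficiency was called in 0 of the 10 genes of this list that were tested in ICM against young.

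Amino acid transporters fell in old cells in all 9 cases and in ICM in 5 of 9, with 1 rise. That rise was SLC7A11, the cystine importer, at 192 ± 22.5 CPM in young, 127 ± 6.86 CPM in old and 541 ± 16.8 CPM in ICM (SD, n = 3), up by 1.49 on the log2 scale (SE 0.07, edgeR adjusted p 3.42e-14) in ICM, and its footprints rose by 1.51 (SE 0.25). SLC7A5, the leucine importer, fell from 663 ± 17.97 to 148 ± 12.6 CPM in ICM (SD, n = 3; log2 change -2.17, SE 0.07), and its translational efficiency was higher by 1.21 (SE 0.29, edgeR adjusted p 0.0191). SLC1A5, the glutamine importer, had a higher translational efficiency in ICM (0.88, SE 0.19, adjusted p 0.00655) and in old cells (0.70, SE 0.19, adjusted p 0.0416) than in young.

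Other amino acid enzymes fell in 9 of 14 cases in ICM and 10 of 14 in old, with 2 rises in each. PCK2, mitochondrial PEP carboxykinase, changed by -2.75 (SE 0.10) in ICM and -1.71 (SE 0.09) in old, and CBS, which uses serine to make cystathionine, by -2.17 (SE 0.09) and -1.65 (SE 0.08). Of 14 other folate genes tested (of 17 in the list), 8 fell and 3 rose in ICM and 9 fell and 2 rose in old. TYMS, thymidylate synthase, fell from 109 ± 7.21 to 8.23 ± 0.0984 CPM in ICM (SD, n = 3; log2 change -3.72, SE 0.09) and SHMT1, the cytosolic counterpart of SHMT2, changed by -1.38 (SE 0.14). All 12 cytosolic aminoacyl-tRNA synthetases fell in mRNA in both ICM and old cells, led in ICM by WARS (-1.72, SE 0.06) and YARS (-1.63, SE 0.07), and 10 and 11 of the 12 fell in footprints. These lists were described by their counts only, beside the 36.1% and 33.7% of all genes called lower in mRNA and the 14.1% and 18.8% in footprints. The shares of all genes called higher in mRNA were 34.9% in ICM and 32.4% in old.

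**Figure D5:**
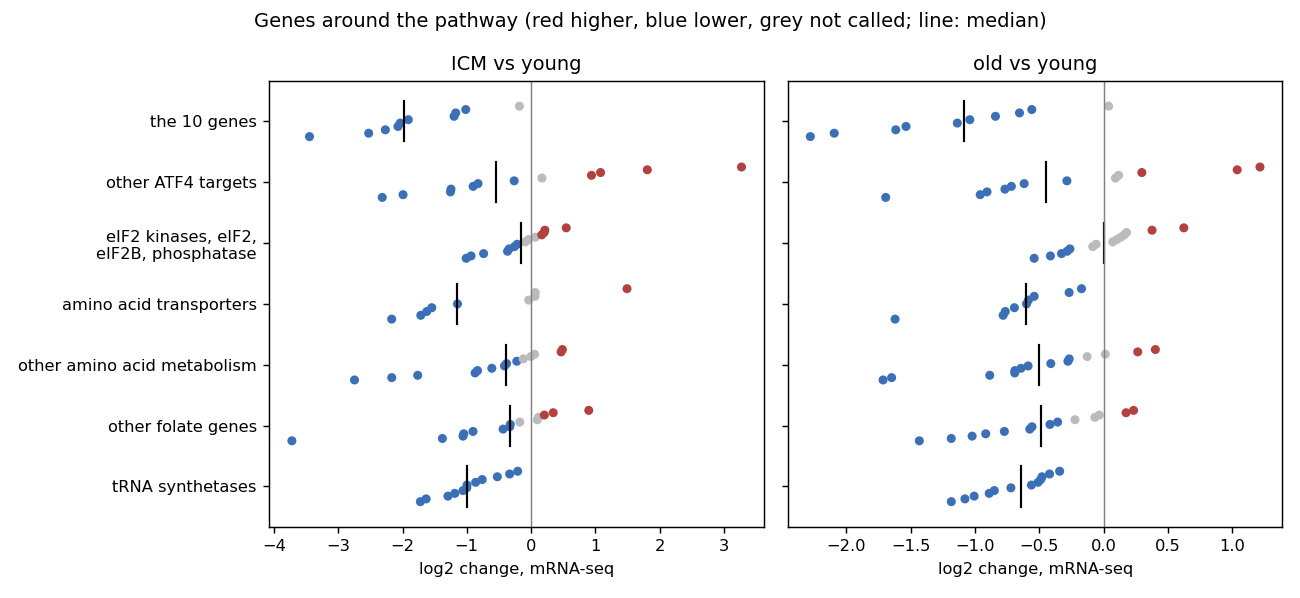
log2 change in mRNA-seq (horizontal axis) of each tested gene of the 10-gene set and 6 related lists, for ICM against young and old against young, coloured by the edgeR call, with the list median as a black line. The 10 genes have medians of -1.97 and -1.09, all 12 tRNA synthetases lie to the left of 0 in both panels, and ATF3 is the point furthest right in ICM, at 3.28.

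Levels were compared between genes only per kilobase of coding length. In young mRNA-seq, ATF4 was highest at 538 ± 69.9 CDS CPM per kb (SD, n = 3), followed by PSAT1 (288 ± 17.3), MTHFD2 (264 ± 20.5), PHGDH (229 ± 3.77) and SHMT2 (204 ± 6.04). CHAC1 (128 ± 9.28) came next, and ASNS (74.4 ± 1.28), TRIB3 (67.0 ± 5.01), PSPH (63.8 ± 4.02) and DDIT3 (62.9 ± 9.64) were lowest. The ranges of PSAT1 and MTHFD2 overlapped, as did those of TRIB3, PSPH and DDIT3. In ICM the order changed: ATF4 stayed highest (246 ± 48.7), SHMT2 (90.9 ± 1.91) was above PSAT1 (70.3 ± 4.80) and MTHFD2 (66.1 ± 5.23), whose ranges overlapped, and ASNS (7.13 ± 2.05) was lowest. By footprints per kb in young cells, PSAT1 had the highest mean (518 ± 159), but its range overlapped that of PHGDH (310 ± 29.8), which was the higher of the pair in young replicate 1. ATF4 (85.6 ± 13.1) and ASNS (99.8 ± 22.8) overlapped as well.

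The genes whose mRNA pattern was most like that of ATF4 over the 9 mRNA-seq libraries, among 10809 genes of at least 5 CPM, were PSMG2 (Pearson r 0.991), NDUFA10, EIF3L, GTF3A and RPL13A (0.983). For the mean of the 6 enzymes they were HNRNPA1L2 (0.999), WARS, NASP, SSRP1 and HNRNPA1 (0.998). HNRNPA1L2 and HNRNPA1 are near-identical copies and may share reads. Among the members, r with ATF4 was 0.458 for DDIT3 and 0.818 for CHAC1, and 0.894 to 0.970 for the rest. These values describe 9 libraries in 3 conditions and share their library totals.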

How the data were processed

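IMR90 Ribo-seq and mRNA-seq were measured in young, old and ICM cells, 3 replicates each, grouped by sample title. The deposited values are estimated counts per gene symbol and transcript region, which the authors did not scale to depth. The submitters' processing notes name STAR 2.6.0c, featureCounts, DESeq2, deepTools and GRCh37. The annotation, and which tool made these tables, are not given in the sources used here. Some reads were divided: 75.8% of the non-zero values of ASNS, 56.8% of MTHFD2 and 30.2% of PSPH were not whole, so near-identical copies may share their reads.

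CDS reads were used for footprints and 5′ UTR, CDS and 3′ UTR reads for mRNA-seq, rounded to whole numbers. edgeR 4.0.16 in R 4.3.3 (quasi-likelihood test, TMM scaling, filterByExpr) was fitted to the 9 libraries of each assay, with two-sided p-values adjusted by the Benjamini-Hochberg method over all genes and a threshold of 0.05. CPM used the TMM-scaled library totals. The SE is the log2 change divided by the root of its F value. Translational efficiency was the interaction of assay and condition over 18 libraries with the lysate as a block, and 5′ UTR against CDS footprints the interaction of region and condition with the library as a block. The study used anota2seq, which was not used here. Ranks among genes used at least 50 footprints. The fits were tested on simulated data.

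The replicate numbers were checked for pairing across conditions. Deviations of same-numbered libraries correlated with r of -0.0555 to 0.103 in mRNA-seq and 0.00455 to 0.0558 in footprints, so the numbers were not used as pairs. The lysate block rests on the study's methods. Pairs of one lysate correlated with r of -0.0797 to 0.136.

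The members and gene lists were chosen with earlier results of these data known. All 10 members are named. From each related list, called genes of at least 5 CPM could be named, up to 2 that rose most and 2 that fell most per measure and comparison, and some of these are. The 5 genes most like ATF4 or the enzymes used a prior count of 2. Coding length was taken from the canonical GENCODE transcript, in place of the planned RefSeq protein length. The results were recomputed with DESeq2 1.42.0, with RLE size factors, with no filter or at least 50 counts, a threshold of 0.15, only the compared groups, the replicate block, CDS reads in mRNA-seq, thinned libraries and leaving out libraries. Permutation tests and intervals used scipy 1.17.1. Some genes of the lists are not reported here by name.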

Additional observations from a re-analysis of the deposited data

Results flagged for a closer look

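CHAC1 mRNA changed differently from young in ICM than in old cells, by -1.95 on the log2 scale (the test of ICM against old, SE 0.09, edgeR adjusted p 3.65e-14), and its footprints by -1.66 (SE 0.49, edgeR adjusted p 0.0162, 10 ICM reads in all). DDIT3 mRNA differed the other way, by 0.47 (SE 0.15, edgeR adjusted p 0.00894), with ICM replicate 2 above the other 8 libraries. Each was singled out because one change from young was called and the other was not, and the difference between them passed its own test in the main edgeR fit. The DDIT3 difference was not called by DESeq2 (adjusted p 0.0611). Nor was it by edgeR with CDS reads only (0.0978) or without ICM replicate 2 (0.141). The CHAC1 footprint difference was not called by DESeq2 (adjusted p 0.133), or by edgeR without old replicate 1 (0.121) or ICM replicate 1 (0.135). The CDS footprint totals of the ICM libraries were 225041, 78980 and 46239, and their part in these differences was not tested.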

How the results depend on the processing

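No direction of a called value reversed under any alternative run. Of single-gene values under alternatives, 518 of mRNA-seq stayed on their side of the threshold, 15 lost and 1 gained a call; in footprints 364 stayed, 23 lost and 13 gained; in translational efficiency 412 stayed and 3 gained. The count of members called in footprints between ICM and old (1) became 0 with a mean of at least 50 counts, 0 with DESeq2, 0 with libraries thinned to the shallowest, and 0 to 2 with 1 library left out. Thinning to the shallowest library left 2 members called in ICM against young footprints and 3 in old against young, with fewer members tested, and thinning mRNA-seq to Ribo-seq depth left 4 called between ICM and old. In translational efficiency, 1 member (PHGDH) was called in old against young with only the compared groups, and leaving out 1 library gave 0 to 1 in ICM against young (SHMT2 without ICM replicate 1). The cause was not tested except for thinning, which removes reads.

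With the replicate block, 4 members were called in footprints of ICM against young, 5 in old against young and 1 between ICM and old, where 16.1%, 14.0% and 8.92% of all genes were called, and 9, 9 and 10 members in mRNA-seq; ATF4 and CHAC1 (ICM) and PSPH (old) lost their footprint calls. Without the lysate pairing (no replicate block), translational efficiency gave 0, 1 (PHGDH) and 0 members, where 6.08%, 9.33% and 1.17% of all genes were called. DESeq2 left 4 and 5 members called in the footprint comparisons with young, where it called 14.8% and 11.4% of all genes. Depth limits the ICM footprints most, where members had 43 to 112 reads per library.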
